A study of Homo sapiens with 2 samples.

Results

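The collagen genes of SBC-3 cells, a human small-cell lung cancer (SCLC) line, were read by class from 2 one-colour Agilent arrays. One array held RNA of cells transfected with #1 siHOTAIR, an siRNA against the long noncoding RNA HOTAIR, and the other held RNA of control cells, transfected with siGFP, which targets green fluorescent protein. Each condition had 1 array, so there was no replicate and no P-value, and the siRNA cannot be told apart from the culture or the array. The labels give neither dose nor time for the arrays, and #1 siHOTAIR is 1 of several siRNAs of the study, the others of which were not on arrays. Members were the probes whose RefSeq accession matched a gene with a symbol of the form COL, a number, A and a number. This gave 43 genes, read by 55 probes and 105 spots, of 19058 named genes and 42402 probes in all. No probe was matched to COL13A1, which leaves 43 of the 44 collagen genes listed by class.

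Collagens are secreted or membrane proteins built of 3 chains wound into a triple helix. Fibrillar collagens form the banded fibres of connective tissue, and basement membrane collagen, type IV, forms the sheet on which epithelia rest. FACIT collagens (fibril-associated collagens with interrupted triple helices) coat the surface of fibrils, and transmembrane collagens span the plasma membrane with the helix outside the cell. Each chain has a gene of its own, and the chains of a type are assembled in the endoplasmic reticulum after hydroxylation of prolines and lysines.

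The signal used is the processed intensity of the scanner software, in arbitrary units, from which the background has been subtracted. Ratios are log2 ratios of #1 siHOTAIR over siGFP after scaling of each array to its own 75th percentile, and the brightness of different probes is not compared. For a probe to be compared, the software had to mark 50% or more of its spots as well above background on 1 array or both. The measurement SD given with a ratio is taken from 392 probes with 10 spots, all of them well above background. It covers error within an array, not the difference between cultures. Probes dimmer than these, among them those of COL9A1 and COL26A1 and the higher COL16A1 probe, took the SD of the lowest level. Error at their own signal was not measured. Signals were well above background for 55.5% and 58.3% of spots in #1 siHOTAIR-transfected and siGFP-transfected cells. HOTAIR itself read 244 in the control and 108 after #1 siHOTAIR, 57.2% lower after scaling, on a single spot with a measurement SD of 0.16 on the log2 scale. ACTB and GAPDH had ratios from -0.05 to -0.00. The culture was checked against marker lists. Of 7 neuroendocrine markers of SCLC, NEUROD1 and ENO2 were well above background on both arrays, with ratios of -0.85 and -0.36. CHGA and NCAM1 were so in #1 siHOTAIR-transfected cells only, CHGA with 72.2 against 10.2 and at least 2.44-fold higher, and INSM1, SYP and UCHL1 on neither array. The summed signal of the list, not scaled between arrays, was 985 after #1 siHOTAIR and 1188 in the control. Of 5 epithelial markers, KRT8 and KRT18 were well above background on both arrays by their brighter probes, with ratios of 0.10 and -0.44. EPCAM passed in the control only, with 9.19 against 25.1, too dim for a fold, and so did a second KRT18 probe, with 16.2 against 36.1, and a second KRT8 probe, with 31.5 against 54.0 and a ratio of -0.82. KRT19 passed in #1 siHOTAIR-transfected cells only, and CDH1 on neither array. The summed signal of this list, also not scaled and mostly that of KRT8 (2825 and 2557), was 3313 and 3181. What part any of these shifts has in the collagen ratios was not tested.

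Collagen transcripts went both ways. Of the 55 probes, 26 for 21 genes passed this filter, 25 of them on both arrays. At a change of at least 2-fold, 1 probe was higher, for COL16A1, and 3 were lower, for COL14A1, COL9A1 and COL5A2. That is 15.4% of the 26, where 7.40% of all 24117 probes compared changed this much (3.30% higher and 4.10% lower). Restricted to probes measured on both arrays it was 3 of 25, 1 higher and 2 lower, against 3.03% of all such probes. With dim signals at their bound, 1 was higher and 2 lower, where 4.40% of all probes passed (2.33% higher and 2.06% lower). At 1.5-fold, 3 collagen probes were higher and 7 lower, 38.5% against 18.2% of all probes (8.50% higher and 9.74% lower). COL1A1 and COL6A2, with ratios of 0.96 and 0.97, lay just inside 2-fold, and both passed it when the arrays were scaled to the spike-in RNA. With either alternative of the background correction, COL14A1 was the 1 collagen probe still past 2-fold. By 1 probe per gene, the median ratio of the 21 genes was -0.04, with 10 above 0 and 11 below, and that of all 13003 named genes compared was 0.02. The size of the ratio was at least 0.5 in 10 of the 21 genes, or 47.6%, and in 21.4% of all named genes.

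**Figure D1:**
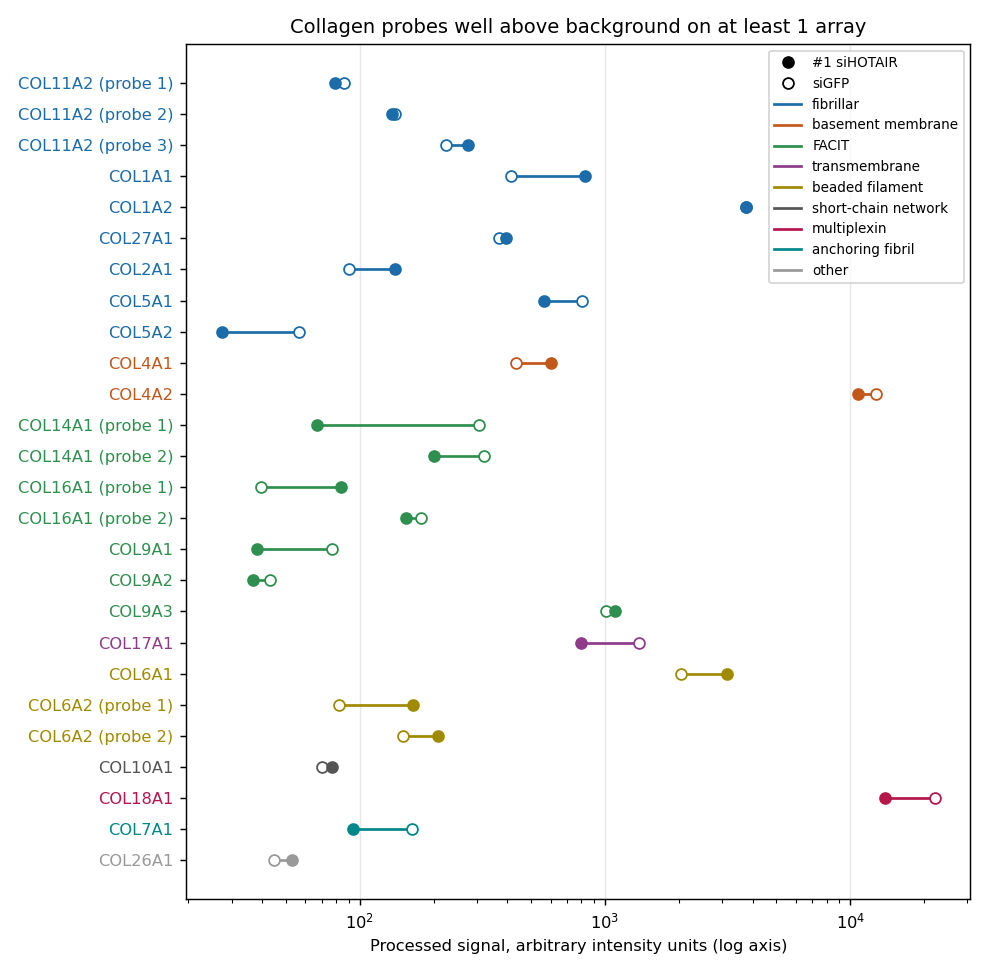
Processed signal (arbitrary intensity units, log axis) of the 26 collagen probes compared, with #1 siHOTAIR as filled and siGFP as open circles, coloured by class. The longest line is that of COL14A1, from 306 in siGFP-transfected cells to 66.9 in #1 siHOTAIR-transfected cells, and the circles of COL1A2 lie on each other.

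The fibrillar collagens had 7 of 11 genes compared, with a median ratio of 0.04 and values between those of COL5A2 and COL1A1. COL1A1, the main chain of type I collagen of bone, skin and tendon, read 832 in #1 siHOTAIR-transfected cells against 414 in siGFP-transfected cells, a ratio of 0.96 with a measurement SD of 0.08, or 1.95-fold higher. Its spots gave 1.06 and 0.86. COL1A2, the partner chain of the same trimer, read 3758 against 3741 by a probe with 10 spots, a ratio of -0.04 with a measurement SD of 0.03, and its spots ran from -0.11 to 0.04. The sign of this small ratio turned with scaling to the spike-in RNA, to 0.10, and without scaling. The ratios of both chains differed by 1.00, or 11.5 measurement SDs. This SD leaves out the difference between probes of 1 gene, which for the 4 collagens with several probes compared had a median of 0.92 and reached 1.51, and for all 2934 such genes had a median of 0.21 and was at least 1 in 7.16%. A gap between chains can therefore not be told apart from one between probes, for type I as for types IV and IX.

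COL2A1, the collagen of cartilage, read 139 against 90.3, a ratio of 0.58 with a measurement SD of 0.14, and both its spots were higher in #1 siHOTAIR-transfected cells. Of the type V chains, which regulate the width of fibrils, the compared ones, COL5A1 and COL5A2, were lower. COL5A1 read 562 against 807 by its bright probe, a ratio of -0.57 with a measurement SD of 0.08, and its other probe, with 37.7 against 30.1, was not compared. COL5A2 stood above background in the control alone, with 27.3 against 56.6, a ratio of -1.10. By the mean of its spots it was at least 1.57-fold lower. Its spots read 39.4 against 53.3 and 19.0 against 60.2, ratios of -0.48 and -1.71, so they differed among themselves on the #1 siHOTAIR array. The bound was put on their mean, and the first spot alone changed by less than 1.57-fold. The call at 2-fold holds with the dim signal at its own level and not at the bound. COL27A1, with 394 against 370, and COL11A2, with 275 against 225 by its brightest probe, had ratios of 0.04 and 0.24. The other probes of COL11A2 gave -0.16 and -0.08, and the measurement SDs of the 3 ratios were 0.17, 0.14 and 0.20. COL3A1, the chain of reticular fibres, COL5A3, COL11A1 and COL24A1 were well above background on neither array, with signals from 8.16 to 9.28 and from 6.21 to 7.43.

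**Figure D2:**
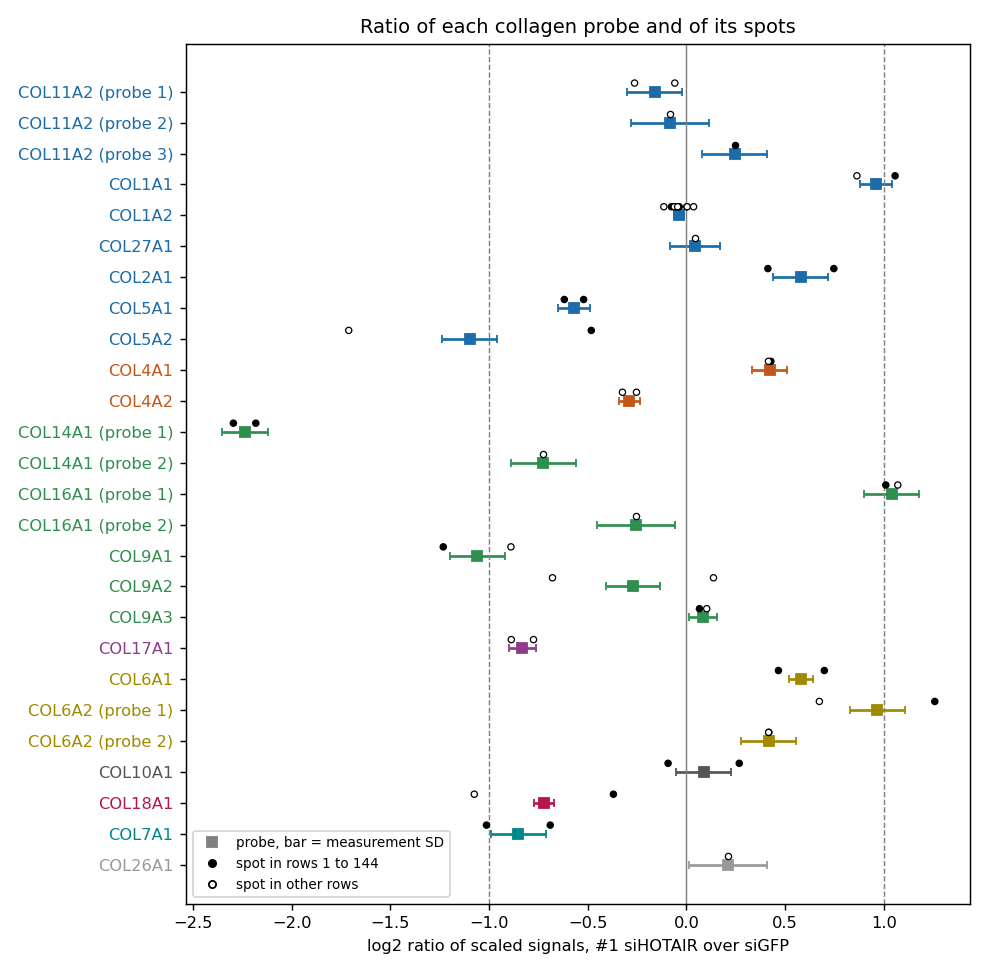
The log2 ratio of #1 siHOTAIR over siGFP for each collagen probe (square, bar showing the measurement SD) and for each of its spots (circles, filled for spots in the first 37.5% of the rows of the array), with dashed lines at 2-fold. Within a probe, the spots of COL1A1, COL17A1 and the first probes of COL14A1 and COL16A1 lie close to each other. Those of COL5A2, COL9A2 and COL18A1 lie apart. The second probes of COL14A1 and COL16A1 lie away from the first, by 1.51 and 1.29.

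The basement membrane collagens were read from COL4A1 and COL4A2, whose chains form the common trimer of all basement membranes. COL4A1 read 602 against 435, a ratio of 0.42 with a measurement SD of 0.09, and its spots gave 0.43 and 0.42. COL4A2 read 10764 against 12734, a ratio of -0.29 with a measurement SD of 0.05, and its spots gave -0.32 and -0.25. The ratios of these partner chains had opposite signs and differed by 0.71. That is less than the median gap of 0.92 between probes of the 4 collagens with several probes compared. It is more than the median gap of 0.21 for all 2934 such genes. COL11A2 and COL16A1 had probes of opposite sign within 1 gene. The signs of COL4A1 and COL4A2 were kept in all 7 scalings and background corrections tried, including the spike-in scaling, with 0.57 and -0.15. The genes lie head to head and share the stretch between their start sites, which is shown for that reason. It is the RefSeq sequence of 126 bases on the plus strand at chr13:110307158-110307283 of GRCh38.p14, intergenic, with COL4A1 transcribed to the left and COL4A2 to the right. Capitals mark a CCAAT box (CCAAT) and a GC box (GGGCGG), searched on both strands.
COL4A1-COL4A2 interval: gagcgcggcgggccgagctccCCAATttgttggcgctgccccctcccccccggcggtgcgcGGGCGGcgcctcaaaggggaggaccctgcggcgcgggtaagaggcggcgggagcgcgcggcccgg
A CCAAT box is found in 21.1% and a GC box in 34.6% of all 35116 promoters over the same length before the start. The stretch holds no TATA box (TATAAA). The remaining chains, COL4A3 and COL4A4 of kidney and lung basement membranes and the X-linked COL4A5 and COL4A6, were too dim on both arrays, and the highest of their signals were 19.5 in #1 siHOTAIR-transfected and 27.1 in siGFP-transfected cells, for COL4A4.

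Of the 7 FACIT probes compared, 1 was at least 2-fold higher and 2 lower, where 7.40% of all probes compared passed (3.30% higher and 4.10% lower). These counts are too small to set the class apart. By the brightest probe the FACIT median was -0.27, the ratio of COL9A2, with a range from -1.06 to 0.08. Of the 5 FACIT genes compared, 4 had a ratio below 0, where 6201 of all 13003 named genes did. With COL16A1 at its other probe it was 3 of 5, with the same median and a highest ratio of 1.04, and the spots of COL9A2 had no common direction. COL14A1, a FACIT of tendon and skin fibrils, had the collagen probe with the largest change. The spots of its first probe read 68.9 and 65.0 after #1 siHOTAIR against 328 and 286 in the control, a ratio of -2.24 with a measurement SD of 0.12, or 4.72-fold lower. The second COL14A1 probe, for the same accession, read 200 against 321 on 1 spot, a ratio of -0.73 with a measurement SD of 0.16, or 1.65-fold lower. Both probes were lower, but by sizes that differed by 1.51 on the log2 scale. The spots of the first lay in rows 35 and 65 of the 384 rows, and that of the second in row 377.

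COL16A1, a FACIT found in fibrils and near basement membranes, had probes of opposite sign. One read 76.7 and 91.5 on its spots, in rows 50 and 309, against 36.9 and 42.2, a ratio of 1.04 with a measurement SD of 0.14, or 2.06-fold higher. The other, with 1 spot in row 315, read 154 against 177, a ratio of -0.25 with a measurement SD of 0.20. Both are for the same accession, and their ratios differed by 1.29, so the arrays give no single direction for COL16A1. The 250 bases before its start site, on the minus strand at chr1:31704018-31704267 of GRCh38.p14, are shown as this gene held the upward call, with GC boxes in capitals.
COL16A1: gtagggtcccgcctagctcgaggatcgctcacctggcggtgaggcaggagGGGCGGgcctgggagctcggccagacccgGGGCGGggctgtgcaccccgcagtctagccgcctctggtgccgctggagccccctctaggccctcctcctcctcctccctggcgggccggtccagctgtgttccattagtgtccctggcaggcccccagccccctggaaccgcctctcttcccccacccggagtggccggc
It holds 2 GC boxes and neither a CCAAT nor a TATA box. Over 250 bases, a GC box was found in 24 of 44 promoters of 32 collagen genes and in 42.6% of all promoters, a CCAAT box in 12 of 44 and 32.0%, and a TATA box in 8 of 44 and 10.7%.

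Type IX collagen, the FACIT of cartilage, is a trimer of COL9A1, COL9A2 and COL9A3. COL9A1 read 51.3 and 28.3 on its spots against 117 and 50.7, a ratio of -1.06 with a measurement SD of 0.14, or 2.09-fold lower, and the second spot was not well above background in #1 siHOTAIR-transfected cells. COL9A2 read 36.8 against 43.0, a ratio of -0.27, but its spots gave 0.14 and -0.68 and so had no common direction. COL9A3 read 1101 against 1005, a ratio of 0.08 with a measurement SD of 0.07. The ratio of COL9A1 minus that of COL9A3 was -1.15 with a measurement SD of 0.16. COL12A1, COL19A1, COL20A1, COL21A1 and COL22A1 were well above background on neither array. For COL20A1 the signals were 31.5 against 12.7 and 36.5 against 22.4, for which no fold is given.

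Of the transmembrane collagens, COL17A1 was the 1 gene well above background. It encodes the collagen of hemidesmosomes, the junctions that anchor epithelial cells to the basement membrane. Its probe read 800 against 1379, and the spots 798 against 1431 and 802 against 1328, in rows 223 and 262. The ratio was -0.83 with a measurement SD of 0.07, or 1.78-fold lower, and it stayed between -0.86 and -0.69 over the scalings and background corrections. COL23A1 had 9.77 against 22.4 and COL25A1, a collagen of neurons, 10.6 against 6.55, both too dim for a fold.

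With 1 array per condition, the difference between classes was not tested. The medians of 0.04, 0.07, -0.27 and -0.83 for fibrillar, basement membrane, FACIT and transmembrane collagens rested on 7, 2, 5 and 1 genes. By the brightest probe of each gene, the range of the fibrillar genes held the values of the other 3 classes through COL5A2, which was dim after #1 siHOTAIR. The other probes of COL14A1 and COL16A1, at -2.24 and 1.04, lay outside that range. Measured on both arrays, the lowest fibrillar ratio was -0.57, for COL5A1, and COL9A1, COL14A1 and COL17A1 lay below it. The order of the 4 medians was the same in all 4 other scalings, but with either alternative of the background correction the fibrillar median, 0.08 and 0.07, lay above that of basement membrane collagens, 0.04 in each. Measured on both arrays, the fibrillar median was 0.14 and the other 3 were the same.

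Collagens outside these classes also had ratios on either side of 0. Both compared chains of type VI collagen, which forms beaded filaments around cells, were higher in #1 siHOTAIR-transfected cells. COL6A1 read 3153 against 2039, a ratio of 0.58 with a measurement SD of 0.06, and its spots gave 0.47 and 0.70. COL6A2 read 208 against 151 by its brighter probe and 165 against 81.9 by the other, with ratios of 0.42 and 0.97 and a measurement SD of 0.14 for each. The 4 spots of COL6A2 gave 0.42, 0.42, 0.67 and 1.26, all above 0. By the brighter probes COL6A1 and COL6A2 differed by 0.17, or 1.09 measurement SDs, and by the other COL6A2 probe the gap was larger. The 250 bases before the start of COL6A2, on the plus strand at chr21:46097862-46098111 of GRCh38.p14, are shown as all compared type VI probes were higher, with GC and TATA boxes in capitals.
COL6A2: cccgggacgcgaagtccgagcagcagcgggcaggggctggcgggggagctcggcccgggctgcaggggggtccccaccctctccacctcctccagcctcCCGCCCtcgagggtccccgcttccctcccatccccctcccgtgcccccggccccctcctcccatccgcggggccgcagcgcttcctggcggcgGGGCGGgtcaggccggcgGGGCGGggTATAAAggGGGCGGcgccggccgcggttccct
It holds 4 GC boxes, 1 of them on the other strand, and 1 TATA box. The third chain, COL6A3, read 25.8 against 5.84 and 13.4 against 7.21 by its 2 probes, too dim on both arrays for a fold, and COL6A5 and COL6A6 were also too dim.

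COL7A1, the collagen of the anchoring fibrils under epithelia, read 93.5 against 163, a ratio of -0.85 with a measurement SD of 0.14, or 1.80-fold lower, with spots of -1.01 and -0.69. COL18A1, a collagen of basement membranes that carries heparan sulphate and releases endostatin, read 13837 against 22115, a ratio of -0.72 or 1.65-fold lower. Its spots gave -0.37 and -1.07, a gap of 0.70 that the measurement SD of 0.05 does not cover, and both were below 0. COL10A1, of growing cartilage, read 76.7 against 69.9 a ratio of 0.09 with a measurement SD of 0.14, and its spots gave 0.27 and -0.09. COL26A1 read 53.2 against 44.5 on 1 spot, a ratio of 0.21 with a measurement SD of 0.20. Both ratios were about the size of their error or less. COL8A1, COL8A2, COL15A1 and COL28A1 were well above background on neither array.

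**Figure D3:**
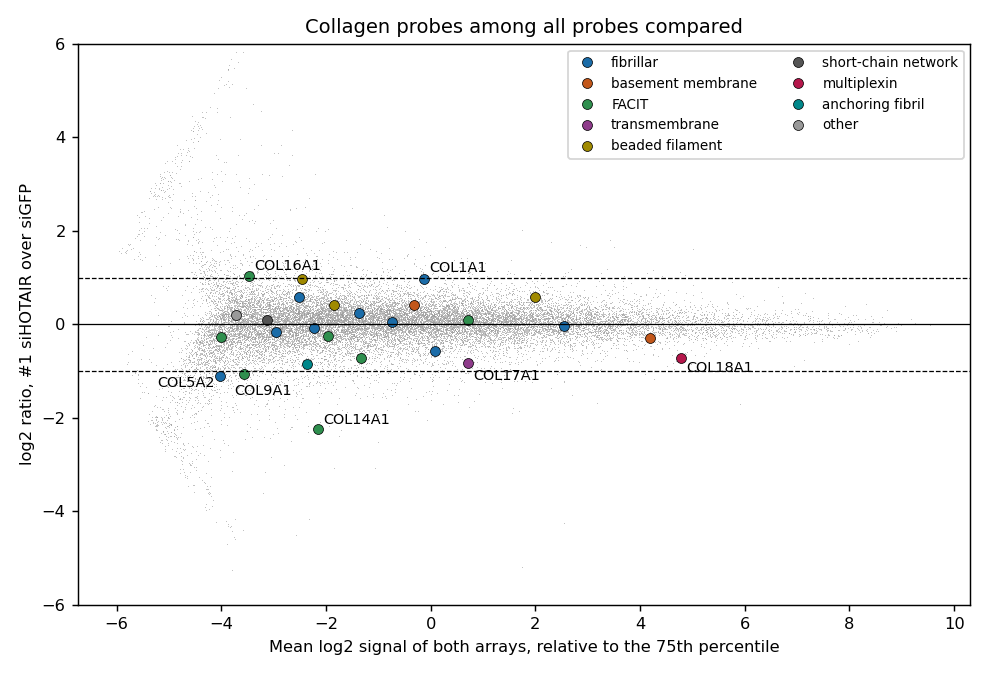
The log2 ratio of #1 siHOTAIR over siGFP against the mean log2 signal of both arrays relative to the 75th percentile, for all 24117 probes compared (grey) and the 26 collagen probes (coloured by class), with dashed lines at 2-fold. COL16A1, COL9A1 and COL5A2 lie at the dim end, where the grey cloud is widest, and COL1A1, COL17A1 and COL18A1 lie toward its edge at brighter signals.

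The 29 collagen probes well above background on neither array belonged to 22 genes by their brightest probe and to COL5A1. Their median signal was 9.31 in #1 siHOTAIR-transfected and 6.87 in siGFP-transfected cells, and their median ratio of 0.35 was that of all such probes, 0.34, an offset of dim signals. For these genes the arrays do not show whether a change occurred.

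Repeated spots and the place on the array bear on these values. Of the 20 compared collagen probes with 2 or more spots, 17 had all spots on 1 side of 0, the exceptions being COL10A1, COL9A2 and COL1A2. Among 16 collagen probes with 2 spots well above background on both arrays, the spots differed by a median of 0.15 in ratio, against 0.09 for all 4460 such probes. Among all spots, those in the first 37.5% of the rows changed at least 2-fold in 9.06% of cases and those in other rows in 5.65%. Without these rows, COL16A1 kept a ratio of 1.07 and COL9A1 one of -0.89, COL5A2 had -1.71 with its single remaining spot, and the first COL14A1 probe had no spot left. The remaining spot of COL18A1 then passed 2-fold, with -1.07. The compared probes of COL2A1, COL5A1, COL6A1, COL7A1 and COL10A1, and the brightest one of COL11A2, also had no spot outside these rows. COL17A1 and COL4A2 had no spot in these rows. The part of position in the other ratios was not tested.

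Genes that make, process and bind collagen were read from lists. Of 32 genes for enzymes and chaperones of collagen, 25 were compared, 18 with a ratio above 0 and 7 below. Of all 13003 named genes compared, 6802 had a ratio above 0, with a median of 0.02. The median of the 25 genes was 0.20. Past 2-fold by their brightest probe were ADAMTS2, a procollagen N-proteinase, at least 1.82-fold higher, and CRTAP, a subunit of the prolyl 3-hydroxylase complex, at least 1.98-fold lower, which is 2 of 25 against 6.11% of named genes (2.72% higher and 3.39% lower). Of the 21 collagen genes by the same count, 0 were higher and 2 lower, COL9A1 and COL5A2. ADAMTS2 and CRTAP were each well above background on 1 array only, ADAMTS2 with 53.7 against 19.6 and CRTAP with 36.2 against 71.5. The prolyl and lysyl hydroxylases were above 0 in 8 of 9 genes, with a median of 0.24 and 0 genes past 2-fold. P3H3 had 0.51, P3H2 0.44 and P4HA1, a catalytic subunit of prolyl 4-hydroxylase, -0.41. SERPINH1, the collagen chaperone HSP47, read 11332 against 6359, a ratio of 0.79 with a measurement SD of 0.05, or 1.73-fold higher. FKBP10, another chaperone of procollagen, had -0.33, and MIA3, which loads procollagen into carriers, had 0.18, 0.29 and 0.42 by probes on both arrays and was at least 1.83-fold higher by another probe, with 54.0 against 19.3.

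The procollagen processing genes measured on both arrays were PCOLCE2, PCOLCE and BMP1, with 0.41, 0.36 and 0.39. Of the lysyl oxidases, which cross-link collagen, LOXL3 had 0.60 and LOXL2 0.11, and LOX, dim after #1 siHOTAIR, read 25.4 against 34.9, too dim for a fold. Of the 6 collagen receptors compared, 0 changed at least 2-fold, where 6.11% of named genes did, a count too small to set the list apart, and their median was 0.01. ITGA11, an integrin chain that binds fibrillar collagen, had -0.54, and DDR1, a receptor tyrosine kinase for collagen, 0.14. Of the partners of type IV collagen, NID1 had 0.46 and HSPG2, the proteoglycan perlecan, -0.28 by its brightest probe. Of 8 fibroblast and mesenchymal markers, VIM had 0.11 and ACTA2, smooth muscle actin, read 520 against 1623, a ratio of -1.69 or 3.23-fold lower. The other 6, among them DCN, LUM and PDGFRB, were well above background on neither array. The summed signal of the list, not scaled between arrays, was 11864 and 11798. Most of it was that of VIM, 11288.5 and 10119, so it is no measure of the other markers. In RNA of whole cultures, a change in the share of cells that express a gene and a change per cell cannot be told apart.

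**Figure D4:**
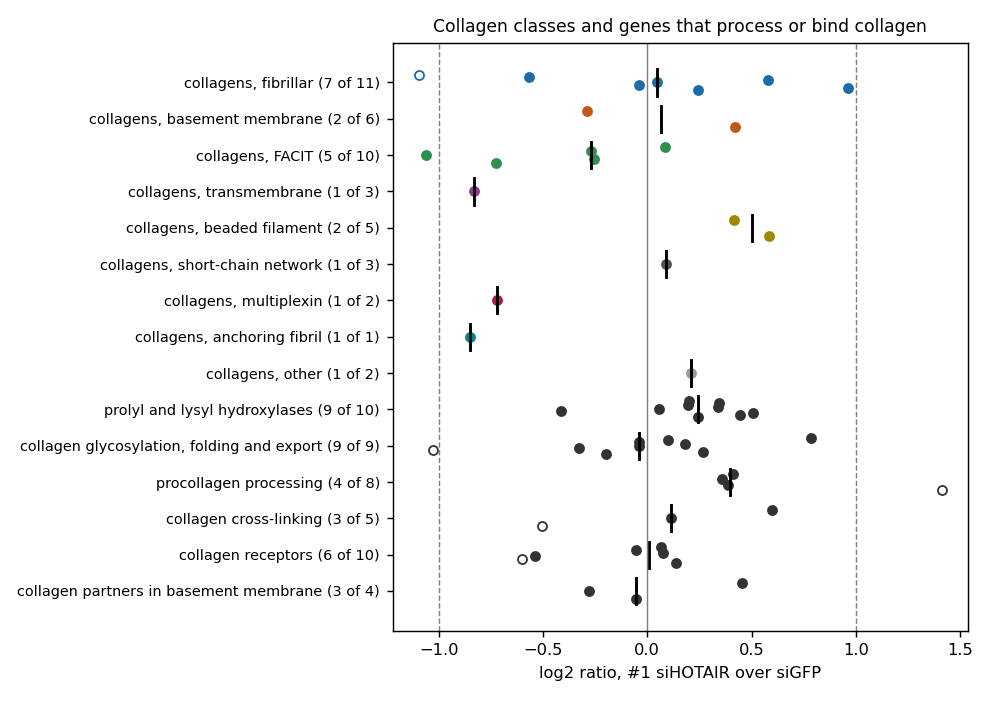
The log2 ratio of #1 siHOTAIR over siGFP by gene (1 probe each, filled when well above background on both arrays, open on 1 array) for the collagen classes and for lists of genes that process or bind collagen, with the median as a black bar and the genes compared of those with a probe in parentheses. The hydroxylases lie mostly above 0, with a median of 0.24, and 4 of 5 FACIT collagens lie below 0, or 3 of 5 with the other probe of COL16A1.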

How the data were processed

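Gene expression was measured in 1 #1 siHOTAIR-transfected and 1 siGFP-transfected culture of SBC-3 cells. The authors labelled RNA with Cy3 and extracted the scans with Feature Extraction 10.10.1.1, per the submitters' processing notes. The deposited processed intensity is background-subtracted and not normalized between arrays, and the deposited value table holds the background-subtracted intensity of the same spots (largest difference 0). Spots marked as outliers were left out, 393 and 375 spots, and 0 were saturated. Each array was scaled to the 75th percentile of its spots, 650.3 and 629.9, and a probe's value is the mean log2 of its spots kept. Where only 1 array had a probe well above background, the dim signal was raised to the lowest spot signal well above background, 37.3 for #1 siHOTAIR and 28.6 for siGFP, or kept if higher, and the fold is given with the words at least. Counts and ratios use dim signals at their own level. By gene, the probe with the highest mean signal was used.

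Accessions were matched without versions to RefSeq names of GRCh38.p14, which named 58.5% of the probes. The measurement SD is the median SD of the spots of probes with 10 spots at 6 levels of signal, divided for the number of spots and summed over both arrays as variances. The lowest level began at scaled log2 signals of -3.39 for #1 siHOTAIR and -3.42 for siGFP, and dimmer probes took its SD. No P-value was computed. Precision is limited by the 1 array per condition. The array design names an older build, so coordinates are those of the RefSeq table. Every collagen probe past 2-fold, every collagen gene on both arrays and probes that disagree were named, and of the other lists the genes past 2-fold and the 2 largest ratios measured on both arrays. P4HA1, PCOLCE, LOX and the marker KRT19 were outside this rule and named after their values were seen. The members and lists were chosen with earlier results of these data known. A gene of the neuroendocrine list is not reported here, and that list's values leave it out. Python 3.11.15, numpy 2.4.6, pandas 2.3.3 and limma 3.58.1 were used, the latter for normexp.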

Additional observations from a re-analysis of the deposited data

How the results depend on the processing

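Alternatives were 4 scalings, 2 background corrections, the value table with a floor of 10, 2 filters, thresholds of 1.5-fold and 3-fold, dim signals at their bound, the median over probes per gene and the array without its first 37.5% of rows. The median signal replaced the mean signal in normexp. Of the 21 collagen genes compared, 20 kept the sign of their ratio under all 7 scalings, corrections and the value table, and COL1A2 did not, with 0.10 under spike-in scaling and 0.01 without scaling. The spike-in scaling raised the median of all probes by 0.14. The collagen probes at least 2-fold higher, 1 as reported, were 3 with spike-in scaling, no scaling, no filter and the 1.5-fold threshold, and 0 with normexp, without background correction and at 3-fold. Those lower, 3 as reported, were 1 with spike-in scaling, normexp, no background correction and the 3-fold threshold, 5 without a filter and 7 at 1.5-fold. With spike-in scaling the medians were 0.19 for fibrillar, 0.21 for basement membrane, -0.13 for FACIT and -0.69 for transmembrane collagens. Without a filter they were 0.24, 0.34 and -0.0598 for the first 3. The fibrillar median lay below 0 without the first rows and with the median over probes per gene, at -0.04 in each. Without the first rows, COL2A1 and COL5A1 drop out of that median. The FACIT median was -0.0789 with normexp and -0.0740 without background correction. These corrections leave or add background to both signals, so ratios of dim probes shrink by construction, to -1.42 and -1.29 for COL14A1 and to 0.41 and 0.36 for COL16A1. No paired analysis was possible because each condition has 1 array, and no replicate could be left out.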
